A study of Homo sapiens with 4 samples.

Results

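Long noncoding RNA genes are transcribed by RNA polymerase II (RNAPII) like protein-coding genes, but their products act as RNA or are processed into small RNAs. MALAT1 and NEAT1 encode abundant nuclear RNAs, the first found in nuclear speckles and the second the scaffold of paraspeckles. MIR17HG is the host of the miR-17-92 microRNA cluster, PVT1 and H19 also carry microRNAs, and SNHG1, GAS5 and ZFAS1 carry small nucleolar RNAs (snoRNAs, guides of ribosomal RNA modification) in their introns. TUG1 RNA was first described in retina. TAF3 is a subunit of TFIID, the general factor that recognises core promoters, and its PHD finger binds histone H3 trimethylated at lysine 4 (H3K4me3), a mark of active promoters.

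Peaks were collected at these 9 genes, whatever their strength, from the full peak lists of 3 antibodies, by overlap of at least 1 bp with the gene's hg19 span plus 2 kb on either side. This gave 13 of 17887 TAF3 peaks, 11 of 17975 H3K4me3 peaks and 134 of 61456 RNAPII peaks. The spans are rounded to 1 kb, so a distance from a gene's end carries that rounding. All libraries came from HCT116, an established human colorectal carcinoma line, at passages 15 to 18, and the labels name no added agent. The 4 libraries were TAF3 (polyclonal serum), H3K4me3, RNAPII and input DNA from chromatin fixed in 1% formaldehyde for 10 min. Each antibody has 1 library, so differences between places have no replicate check, and no test was made. The tag intervals below cover the counting of tags only. After duplicate removal the libraries held between 12560129 and 19185386 tags.

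The results turn on a few start sites, and their RefSeq sequences are shown to let a reader see the core promoter elements beside the peaks. Windows run from 250 bases before to 50 bases after an annotated start, on build GRCh38.p14. The peaks are on hg19, so the windows and the peaks were not aligned to each other. Of the 9 genes, 7 had a window, 8 windows in all. Capitals mark matches on either strand to TATAAA (the TATA box), to CCAAT (bound by the factor NF-Y), and to GGGCGG (the GC box). They also mark CACGTG (the E-box) and the longer cAMP response element TGACGTCA. A further TATA form, TATATAA, was added after the sequences were seen. MALAT1 is shown because RefSeq gives it 2 starts 1307 bp apart that differ in kind. ZFAS1 is shown for its high TAF3 peak, SNHG1 for a start shared with another gene, and MIR17HG for its H3K4me3.
MALAT1 first start, chr11:65497488-65497787, plus strand: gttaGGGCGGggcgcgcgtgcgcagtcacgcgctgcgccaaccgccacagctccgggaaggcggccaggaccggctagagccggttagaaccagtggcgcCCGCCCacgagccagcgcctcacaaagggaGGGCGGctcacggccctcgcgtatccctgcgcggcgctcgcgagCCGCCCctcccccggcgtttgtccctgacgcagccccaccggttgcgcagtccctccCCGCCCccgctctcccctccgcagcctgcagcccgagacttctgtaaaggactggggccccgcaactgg
MALAT1 second start, chr11:65498795-65499094, plus strand: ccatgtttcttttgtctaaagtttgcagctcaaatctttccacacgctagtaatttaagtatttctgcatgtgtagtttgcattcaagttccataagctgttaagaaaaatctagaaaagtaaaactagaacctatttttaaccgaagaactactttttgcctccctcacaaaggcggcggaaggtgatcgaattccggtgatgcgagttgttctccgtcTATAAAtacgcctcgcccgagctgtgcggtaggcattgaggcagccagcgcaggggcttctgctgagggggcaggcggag
ZFAS1, chr20:49278392-49278691, plus strand: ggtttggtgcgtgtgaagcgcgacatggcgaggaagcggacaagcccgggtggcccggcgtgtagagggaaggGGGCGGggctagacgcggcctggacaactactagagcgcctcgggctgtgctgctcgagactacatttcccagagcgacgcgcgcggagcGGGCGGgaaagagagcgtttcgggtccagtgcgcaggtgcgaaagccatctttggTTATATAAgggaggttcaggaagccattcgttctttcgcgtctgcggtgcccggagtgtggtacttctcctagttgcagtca
SNHG1, chr11:62855836-62856135, minus strand: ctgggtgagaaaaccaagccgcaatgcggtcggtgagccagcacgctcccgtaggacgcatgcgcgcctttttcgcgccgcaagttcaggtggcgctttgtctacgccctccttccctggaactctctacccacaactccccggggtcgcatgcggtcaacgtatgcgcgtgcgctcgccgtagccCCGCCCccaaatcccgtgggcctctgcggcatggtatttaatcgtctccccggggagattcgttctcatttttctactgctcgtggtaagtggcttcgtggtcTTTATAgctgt
MIR17HG, chr13:91347437-91347736, plus strand: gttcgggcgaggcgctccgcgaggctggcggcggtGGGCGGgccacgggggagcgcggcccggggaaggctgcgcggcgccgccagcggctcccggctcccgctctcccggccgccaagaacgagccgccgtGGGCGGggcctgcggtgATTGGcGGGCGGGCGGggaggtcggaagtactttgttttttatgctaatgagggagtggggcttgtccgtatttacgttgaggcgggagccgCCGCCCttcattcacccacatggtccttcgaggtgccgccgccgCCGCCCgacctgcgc

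The second MALAT1 window holds TATAAA with its first base 30 bases before the start and no GC box, and 46.0% of its bases are G or C. The first MALAT1 window holds 5 GC boxes and no TATAAA, with 73.7% G or C. The ZFAS1 window holds TATATAA beginning 31 bases before the start, on the same strand as the gene, overlapping a match on the other strand. In SNHG1 the TATAAA match lies after the start and on the opposite strand. Among all 35116 windows, 11.5% hold TATAAA, 2.57% TATATAA, 34.6% CCAAT, 7.26% CACGTG and 1.85% TGACGTCA, and GGGCGG is in 15786 of them. The median of all windows is 58.7% G or C. TGACGTCA was in 0 of the 8 windows, and CACGTG was in 1, that of TUG1. The GAS5 and H19 windows are not printed, because the RefSeq genes, 5145 and 6091 bp long, exceed the hg19 spans used here, 4 and 3 kb. Whether these genes and spans start at the same place was not checked, since the builds were not aligned.

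All 3 antibodies had a peak at each of the 9 genes. The leading peak of an antibody at a gene, the one of highest fold enrichment over input, passed the authors' filter (fold above 5, false discovery rate below 5%) at 8 of 9 genes for TAF3, where 65.8% of the list passes. It passed at 9 of 9 for H3K4me3, where 79.5% passes, and at 9 of 9 for RNAPII, where 40.7% passes. H19 was the gene whose TAF3 peaks did not pass. The leading TAF3 peak overlapped a peak of both other lists at 9 of 9 genes, as did 86.0% of all TAF3 peaks.

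By fold enrichment TAF3 and RNAPII stood high in their own lists at most of these genes. H3K4me3 was spread over its list, from above 20.8% of it at H19 to above 94.8% at MIR17HG, with the median near the middle. The leading TAF3 peak was in the top 10% of its list by fold enrichment at 5 of 9 genes (9.87% of the list qualifies), RNAPII at 8 of 9 (10.0%) and H3K4me3 at 1 of 9 (9.99%), MIR17HG. The median leading peak exceeded 90.4% of the TAF3 list, 92.2% of the RNAPII list and 48.5% of the H3K4me3 list. Ranked by tags per peak the H3K4me3 median was 89.9%, with 4 of 9 genes in the top 10%, so its place rests on the measure. The leading peak is the highest of those found at a gene, which places it higher than a peak taken at random. Of the RNAPII list, 24.3% overlaps peaks of both TAF3 and H3K4me3, at a median of 91.1-fold against 12.0-fold over the whole list. Among the 14944 RNAPII peaks that overlap both TAF3 and H3K4me3 the median position of the 9 genes was 67.9%, and by the same comparison it was 88.8% for TAF3 and 37.9% for H3K4me3. The RNAPII count of 8 genes in the top 10% fell to 3 (MALAT1, MIR17HG and ZFAS1) among those peaks, and to the same count within the filtered list, where the TAF3 count fell from 5 to 3.

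**Figure D1:**
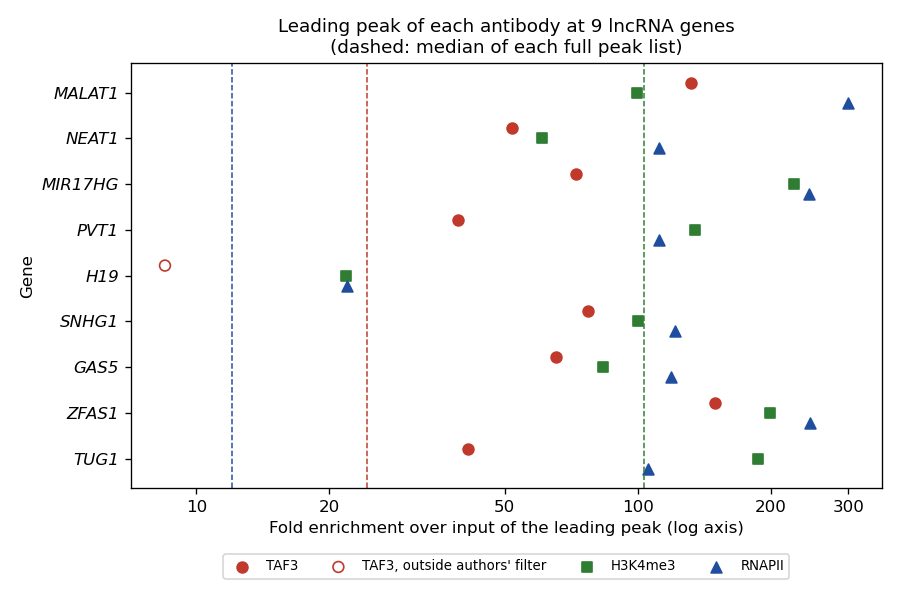
Fold enrichment over input (log axis) of the leading TAF3, H3K4me3 and RNAPII peak at each of the 9 genes, with 1 library per antibody and dashed lines at the median of each full list (24.4, 103.5 and 12.0). MALAT1 and ZFAS1 have the highest TAF3 values, 131.8 and 149.98, and H19 the lowest value of every antibody.

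The leading peaks at these genes were wide. The leading peak was in the top 10% of its list by width at 7 of 9 genes for TAF3 (9.98% of the list qualifies), at 7 of 9 for H3K4me3 (9.99%) and at 7 of 9 for RNAPII (9.99%). For TAF3 the top 10% begins at 2223 bp, for the histone mark at 3248 bp and for RNAPII at 2486 bp. The median width of the leading peaks was 2846 bp for TAF3, with 4159 bp for the histone mark and 8022 bp for RNAPII. Over the whole lists the medians were 1243, 1985 and 836 bp. Among peaks overlapping both other lists they were 1360, 2199 and 1555 bp, and the top 10% counts by width were not repeated there. Peaks at the 9 genes held 36583 RNAPII tags, 0.217% of those kept.

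MALAT1 carried one of the strongest RNAPII peaks of the genome. Its single RNAPII peak, chr11:65263693-65276433, was 299-fold enriched with 6360 tags (95% Poisson interval 6205 to 6518), and ranked 5 of 61456 by fold and 15 by tags. The peak covered 100% of the 9 kb span and ran 2433 bp past its 3′ end. The leading TAF3 peak, chr11:65264278-65269869, was 131.8-fold enriched with 898 tags (840 to 959) and ranked 83 of 17887 by fold and 19 by width. The H3K4me3 peak, chr11:65265060-65272791, held 1773 tags (1691 to 1857) at 99.8-fold. It ranked 11 of 17975 by width at 7732 bp, while 48.4% of the H3K4me3 list had a lower fold, so this was a broad peak of middling fold. A second TAF3 peak at chr11:65274126-65275544, just past the rounded 3′ end, had 59 tags, 11.02-fold enrichment and a false discovery rate of 7.49%. A second H3K4me3 peak, of 15 tags, lay at the 5′ edge and also failed the filter.

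The MALAT1 summits did not lie at the outer end of the gene. The TAF3 summit was 1522 bp and the RNAPII summit 1533 bp inside the rounded 5′ end of the span. The distance between the RefSeq starts, on the other build, is 1307 bp, and the downstream start is the one with the TATAAA match shown above. Which start the summits mark was not tested.

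NEAT1, upstream of MALAT1 on the same chromosome, had RNAPII along its full length but a narrower promoter signal. Its 3 RNAPII peaks covered 99.5% of the 23 kb span and together held 10312 tags, counted over whole peaks that also reach outside the span. The leading one, chr11:65182041-65201147, spanned 19107 bp and began upstream of the 5′ end. It held 7304 tags (7137 to 7473), rank 7 of 61456, at 112-fold. The next, chr11:65201191-65204617, had 44.1-fold enrichment and 690 tags. The third, chr11:65204694-65217099, was 59.6-fold enriched with 2318 tags. Its summit lay 547 bp past the 3′ end, and the peak ran 4099 bp past it. By fold the middle peak was the lowest of the 3, but by tags per kb it held 201.3, against 186.8 in the 3′ peak and 382 in the leading one.

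TAF3 at NEAT1 was 51.9-fold enriched with 664 tags (614 to 716) at chr11:65188232-65192343, and H3K4me3 was 60.8-fold with 1016 tags (954 to 1080) at chr11:65188800-65192978. These covered 10.2% and 12.95% of the span. The H3K4me3 fold exceeded only 35.1% of its list, against 82.9% for TAF3. A further TAF3 peak of 27 tags, 6.31-fold, touched the upstream margin alone and failed the filter.

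MIR17HG is the host of 6 microRNA hairpins that, on GRCh38.p14, lie 2918 to 3704 bp from its annotated start. The mature forms usually loaded into Argonaute are shown, seed (bases 2 to 8) in capitals, because these RNAs are the product of the gene. They share 4 seeds, with miR-17 and miR-20a alike and miR-19a and miR-19b alike.
hsa-miR-17-5p: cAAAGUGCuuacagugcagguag
hsa-miR-20a-5p: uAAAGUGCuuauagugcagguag
hsa-miR-18a-5p: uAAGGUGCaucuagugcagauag
hsa-miR-19a-3p: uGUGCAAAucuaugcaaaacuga
hsa-miR-19b-3p: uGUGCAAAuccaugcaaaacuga
hsa-miR-92a-3p: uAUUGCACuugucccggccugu

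MIR17HG had high enrichment of all 3 antibodies in peaks close to its 5′ end. RNAPII was 244-fold enriched with 863 tags (806 to 923) at chr13:91999259-92001802, rank 134 of 61456. H3K4me3 was 226-fold with 1035 tags (973 to 1100) at chr13:91999217-92002765, and TAF3 72.4-fold with 446 tags (406 to 489) at chr13:91999468-92001890. The H3K4me3 peak exceeded 94.8% of its list and the TAF3 peak 92.9%. Beyond the first peak RNAPII fell away to 4 peaks of 11 to 40 tags and 7.12- to 13.8-fold, none of which passed the filter. The first of these 4, chr13:92002636-92003659, lay 2636 to 3659 bp from the rounded 5′ end. RNAPII rose again at the 3′ end, in a peak at chr13:92006800-92013644 of 586 tags and 25.6-fold that extended 6644 bp past the span. Peaks of the full list covered 64.1% of the span, and those inside the filter 28.6%.

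PVT1 had the longest span, 308 kb, and many low RNAPII peaks along it. At its 5′ end TAF3 was 39.1-fold enriched with 348 tags (312 to 387) at chr8:128806373-128809055, above 70.8% of the list. H3K4me3 there was 135-fold with 1271 tags (1202 to 1343), and RNAPII 112-fold with 587 tags (540 to 636). Downstream, the 306 kb of gene body beyond the first 2 kb held 110 RNAPII peaks, 0.359 per kb. The median of these was 7.17-fold enriched, the lowest 4.22- and the highest 15.4-fold, and they held 13 to 324 tags. The filter kept 13 of these 110, where 40.7% of the whole RNAPII list passes. In the same stretch there was 1 TAF3 peak (34 tags, 7.98-fold) and 1 H3K4me3 peak (54 tags, 7.63-fold), at different places, and neither passed the filter.

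The low RNAPII peaks ran the whole length of PVT1. In 5 consecutive stretches of 61.6 kb from the 5′ end, RNAPII peaks covered 54.4%, 27.3%, 32.9%, 56.6% and 40.2% of the bases, and 29, 18, 22, 24 and 18 peaks had their summits there. The peaks of these stretches held 2140, 710, 806, 1822 and 1175 tags, so both tags and covered share were highest in the first and the fourth and lowest in the second. The first stretch includes the leading peak at the 5′ end, with its 587 tags, beside the low peaks. The median fold lay between 6.71 and 7.88, over called peaks alone. At the 3′ end a stronger peak, chr8:129113072-129120517, held 794 tags at 17.0-fold and ran 6517 bp past the span. Of all 112 RNAPII peaks at PVT1, 15 passed the filter, where 40.7% of the whole list passes.

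**Figure D2:**
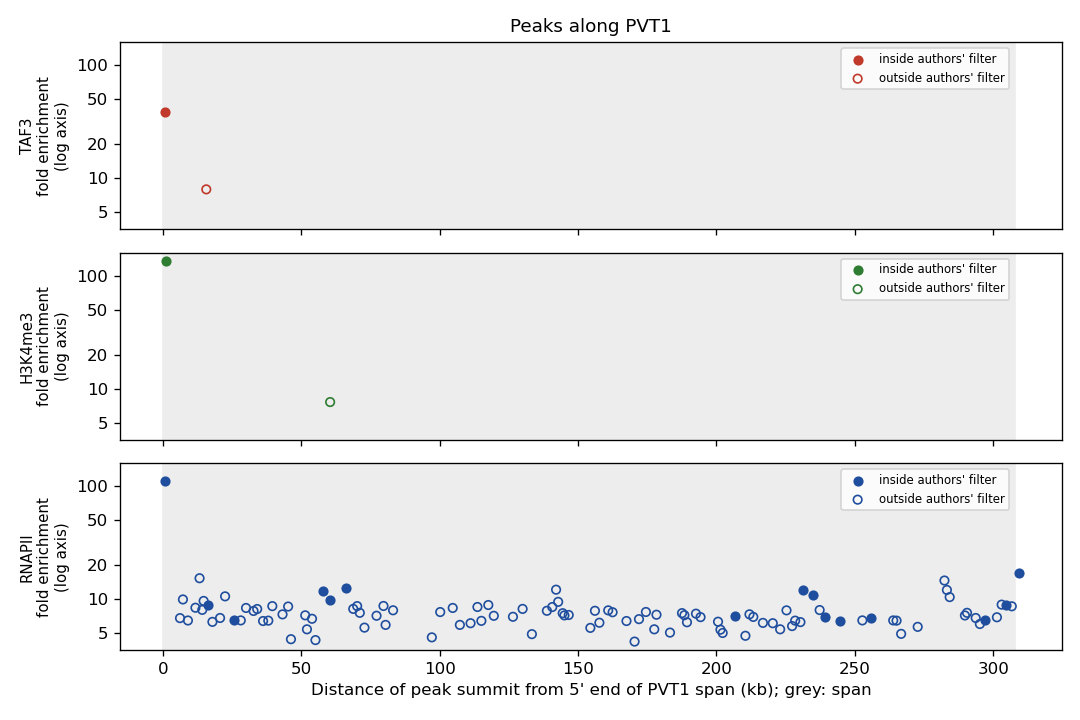
Fold enrichment (log axis) of every TAF3, H3K4me3 and RNAPII peak at PVT1 against the distance of its summit from the 5′ end of the 308 kb span, shaded. Filled points pass the authors' filter: TAF3 and H3K4me3 pass at the 5′ end alone, and RNAPII continues in low peaks to the 3′ end.

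H19, an imprinted gene whose RNA is the precursor of miR-675, was the weakest of the 9. TAF3 had 2 small peaks, chr11:2019105-2019533 (18 tags, interval 10.7 to 28.4, 8.49-fold, false discovery rate 33.3%) and chr11:2019773-2020419 (27 tags, 6.72-fold, 21.1%). H3K4me3 was 21.8-fold with 87 tags (69.7 to 107) at chr11:2019161-2020520, and RNAPII 21.97-fold with 146 tags (123 to 172) at chr11:2018795-2020783. These 3 leading peaks exceeded 11.8%, 20.8% and 71.3% of their lists. Both TAF3 peaks and the H3K4me3 peak lay wholly upstream of the rounded 5′ end, so they count through the margin and not the span. RNAPII covered 10.7% of the span, and the peak over the 3′ end had 16 tags and failed the filter.

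The snoRNA host genes SNHG1, GAS5 and ZFAS1 shared a pattern of high TAF3 with RNAPII across the whole span, which MALAT1 also showed. In RefSeq they hold 9, 11 and 3 snoRNA genes. At SNHG1, TAF3 was 77.2-fold with 998 tags (937 to 1062) at chr11:62621836-62625312, rank 38 of 17887 by tags. At GAS5 it was 65.3-fold with 650 tags (601 to 702) at chr1:173835528-173838373. At ZFAS1 it was 150-fold with 715 tags (664 to 769) at chr20:47893379-47896922, rank 26 by fold and the highest TAF3 enrichment of the 9 genes. All 3 lay in the top 10% of the full TAF3 list by fold, GAS5 narrowly, above 90.4% of it. GAS5 exceeded 85.4% of the filtered list and 88.8% of the TAF3 peaks overlapping both other lists. SNHG1 and ZFAS1 stayed in the top 10% in both of those comparisons.

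RNAPII covered 100% of the span at each snoRNA host gene with a single peak. It was 121-fold with 2567 tags (2469 to 2668) over 8022 bp at SNHG1, chr11:62617253-62625274. It was 119-fold with 2962 tags (2856 to 3071) over 8795 bp at GAS5, chr1:173829660-173838454. At ZFAS1, chr20:47893960-47910085, it was 246-fold with 4286 tags (4159 to 4416) over 16126 bp. These peaks ran past the 3′ end by 1747, 3340 and 4085 bp. ZFAS1 also had 2 RNAPII peaks of 15 and 16 tags upstream, outside the filter.

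H3K4me3 was broad at the snoRNA host genes. It was 100-fold with 2061 tags (1973 to 2152) at SNHG1, chr11:62620756-62625747, 83.4-fold with 1472 tags (1398 to 1549) at GAS5, chr1:173834892-173839050, and 200-fold with 2193 tags (2102 to 2287) at ZFAS1, chr20:47892443-47898122. The widths were 4992, 4159 and 5680 bp, and the tags per kb 413, 354 and 386. The values exceeded 48.5%, 42.2% and 89.2% of the H3K4me3 list by fold.

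Some of these starts are shared with another gene. In the RefSeq windows SLC3A2, an amino acid transporter subunit, starts 224 bp upstream of SNHG1 on the opposite strand, and MORC2, a chromatin remodelling ATPase, starts 491 bp upstream of TUG1 on the opposite strand. ZBTB37, a zinc finger gene, starts on the opposite strand 665 bp inside the RefSeq GAS5 gene. ZNFX1 is the gene next to ZFAS1 on its 5′ side. Peaks this wide cannot be divided between such neighbours, so the signal of either gene at these places cannot be told apart.

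TUG1, listed in RefSeq as protein-coding, had a TAF3 peak of 41.3-fold with 188 tags (162 to 217) at chr22:31364449-31366316, above 73.1% of the list. H3K4me3 was 187-fold with 965 tags (905 to 1028) at chr22:31363804-31367152, and RNAPII 106-fold with 427 tags (387 to 469) at chr22:31364335-31366530. RNAPII continued in 3 further peaks, all inside the filter, of 15.8-fold (156 tags), 14.4-fold (209 tags) and 21.1-fold (102 tags). The last had its summit 85 bp past the 3′ end. RNAPII covered 72.1% of the 11 kb span, H3K4me3 19.6% and TAF3 12.0%.

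**Figure D3:**
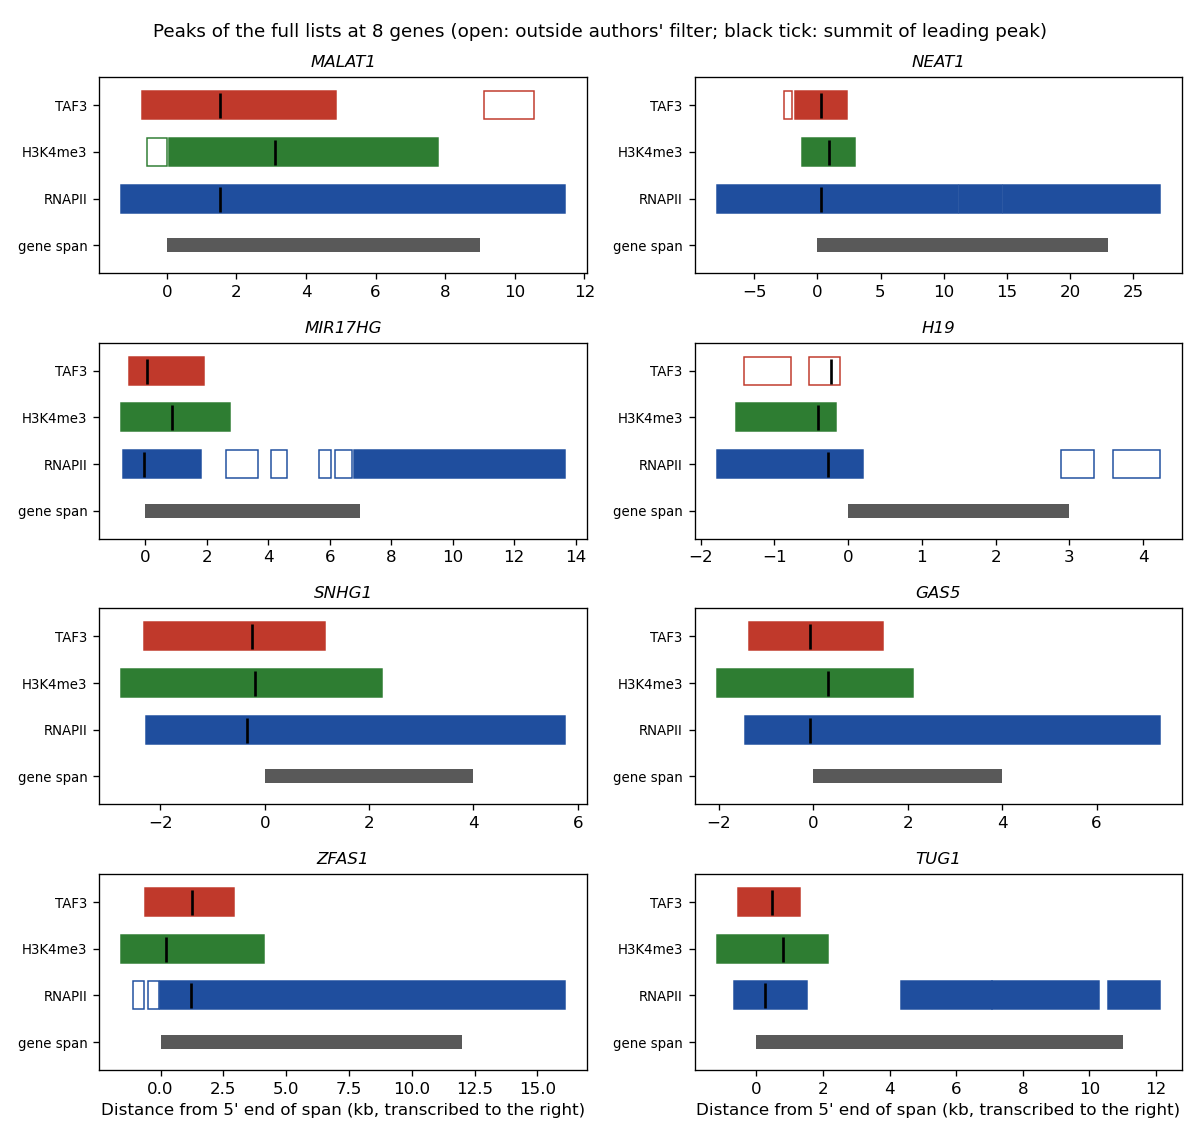
Peaks of the full lists at 8 of the genes as bars against distance from the 5′ end of the span in kb, transcribed to the right, with open bars for peaks outside the authors' filter and a black tick at the summit of the leading peak. TAF3 bars inside the filter lie over the rounded 5′ end, the one at MALAT1 reaching 4869 bp into the span. RNAPII bars reach the rounded 3′ end in each panel, at H19 through a peak of 16 tags outside the filter.

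RNAPII peaks lay over the 3′ end of the rounded span at every gene. An RNAPII peak lay over the last base of the span at 9 of 9 genes, at 6.92- to 299-fold, while TAF3 and H3K4me3 did so at 0 of 9. The TAF3 peak at the 3′ end of MALAT1 begins past the span by less than its rounding, so its place there is not settled by these coordinates. The RNAPII peaks over the 3′ ends of H19, MIR17HG, TUG1 and PVT1 enter the span by less than the same rounding. Their places over the gene end are therefore not settled either. The RNAPII list covers 2.95% of the effective genome, TAF3 0.878% and H3K4me3 1.32%. With filtered peaks alone H19 would not count. No hg19 set of other gene ends was at hand, so how common this is at genes in general is not analysed here. In the full lists the covered share of the span was highest for RNAPII at every gene. It was 99.5% or more at 5 genes (MALAT1, NEAT1, SNHG1, GAS5 and ZFAS1), and 72.1% at TUG1, 64.1% at MIR17HG, 42.3% at PVT1 and 10.7% at H19. With filtered peaks alone the order changed at MIR17HG, where H3K4me3 covered 39.5% and RNAPII 28.6%.

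**Figure D4:**
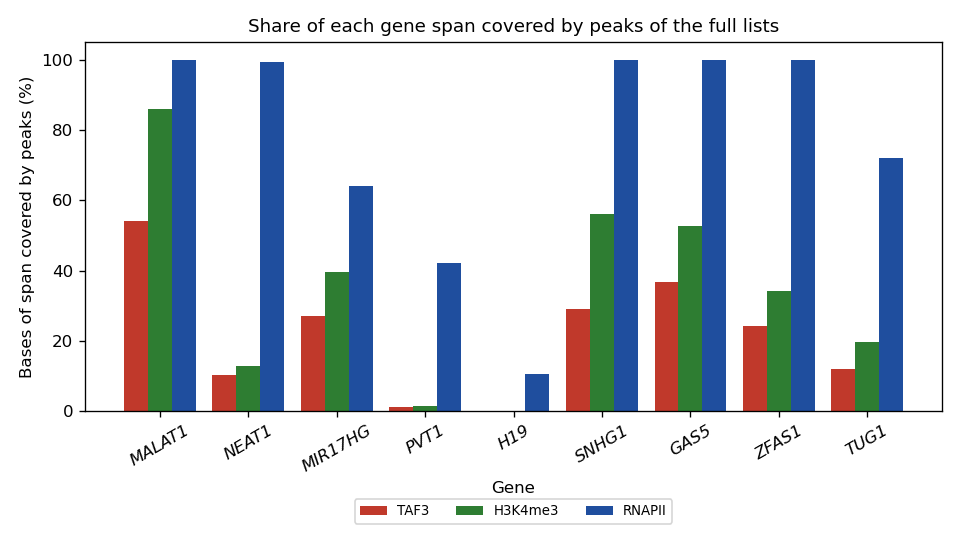
Share of the bases of each gene span, without margin, covered by peaks of the full TAF3, H3K4me3 and RNAPII lists, in percent. RNAPII covers the largest share at each gene, from 10.7% at H19 to 100% at MALAT1, SNHG1, GAS5 and ZFAS1.

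RNAPII summits lay closer to TAF3 summits than H3K4me3 summits did at 8 of 9 genes, SNHG1 being the exception. The 15390 TAF3 peaks with both partners had medians in the same order, 50 bp to RNAPII and 218 bp to H3K4me3. The share of those peaks with this order was not counted, so the count is not shown to be particular to these genes. The RNAPII summit was within 100 bp of the TAF3 summit at 8 of 9 genes, 7 bp away at GAS5, 10 bp at NEAT1, 11 bp at MALAT1, and 205 bp at TUG1. Over the 15390 TAF3 peaks with both partners the median distance was 50 bp, with quartiles of 17 and 204 bp. The RNAPII summit was within 100 bp at 64.2% of those peaks and within 50 bp at 50.2%, against 5 of 9 genes within 50 bp, so the closeness at these genes was near that of the list. In the direction of transcription the RNAPII summit preceded the TAF3 summit at 8 of 9 genes, MALAT1 being the exception by 11 bp. These offsets ran from 7 bp at GAS5 to 205 bp at TUG1, where the labels give a fragment size of 200 bp. Whether summits of 1 library per antibody resolve such an order was not tested. The H3K4me3 summit lay downstream of the TAF3 summit at 7 of 9 genes, by 54 bp at SNHG1 up to 1577 bp at MALAT1. At ZFAS1 it lay 998 bp upstream and at H19 173 bp upstream. The shares of all TAF3 peaks with these upstream or downstream orders were not analysed here. The direction of transcription was at hand for these genes alone, so neither of these counts is shown to be particular to them. The distance at MALAT1 was larger than at 98.1% of the TAF3 peaks with both partners, whose median was 218 bp, and at ZFAS1 than at 94.7%.

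**Figure D5:**
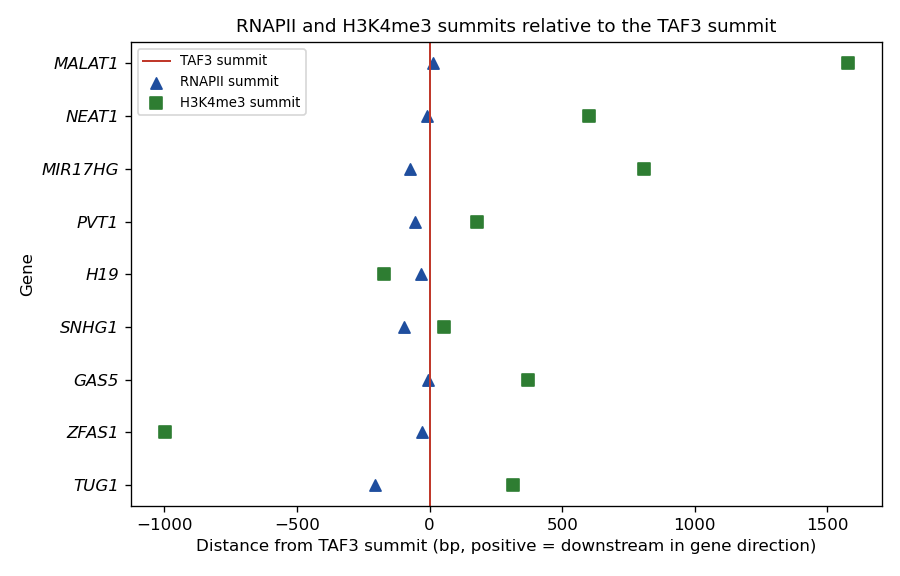
Position of the RNAPII and H3K4me3 summits relative to the TAF3 summit at each gene, in bp, positive in the direction of transcription. RNAPII summits lie within 205 bp of TAF3, and H3K4me3 summits range from 998 bp upstream at ZFAS1 to 1577 bp downstream at MALAT1.

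The balance of TAF3 to H3K4me3 varied between the genes. The ratio of their fold enrichments was 1.32 at MALAT1, 0.853 at NEAT1, 0.783 at GAS5, 0.772 at SNHG1 and 0.750 at ZFAS1. Each of these 5 exceeded at least 93.4% of the TAF3 peaks with both partners, whose median ratio was 0.273. At H19, MIR17HG, PVT1 and TUG1 the ratio was 0.389, 0.321, 0.290 and 0.221, between the percentiles 34.4 and 73.0. The ratio of TAF3 to RNAPII fold was highest at SNHG1, 0.637, above 94.1% of those peaks, and lowest at MIR17HG, 0.296, above 38.7%. This grouping rests on fold. From tags per kb, a measure added after seeing the data, the ratio was 0.656 at H19 and 0.631 at MIR17HG, both above ZFAS1 at 0.523, and it was 0.700 at MALAT1, 0.309 at PVT1 and 0.349 at TUG1. The H3K4me3 library lost 40.2% of its tags as duplicates, against 14.2% for TAF3, and the part of this in the ratios was not tested.

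The 2 kb margin decided a few peaks. Just inside it, without touching a span, were 8 peaks, 3 of TAF3 and 1 of H3K4me3 at or near the 5′ end of H19 and NEAT1, 1 of TAF3 past the 3′ end of MALAT1, and 3 of RNAPII at H19 and ZFAS1. The H3K4me3 peak passed the filter. Just outside it, upstream of NEAT1, lay a TAF3 peak of 115 tags and 23.8-fold, inside the filter, 2759 bp from the span. Upstream of MALAT1 an RNAPII peak of 608 tags and 49.1-fold ended 3157 bp from the span. The nearest RNAPII peak upstream of PVT1, 49588 bp away, had 5993 tags at 165-fold, and MYC is the next gene on that side. No TAF3 peak lay within 3193933 bp of MIR17HG outside its own.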

How the data were processed

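Chromatin immunoprecipitation sequencing of TAF3, H3K4me3 and RNAPII in HCT116 cells was compared with 1 input library. CASAVA 1.8.2, MACS 1.4.2 and the hg19 build are named, per the submitters' processing notes. Per the file headers, peaks were called per antibody against the same input at a p cutoff of 1e-05, with at most 1 tag kept per position. In the deposited full lists, the tags of a peak are a count not scaled to depth and the fold enrichment is a ratio to the local background. The deposited score is -10 times the log10 of the p-value, while false discovery rates were deposited in percent. The deposited filtered lists were checked to hold exactly the peaks with a fold above 5 and a false discovery rate below 5%. Values per peak are the authors' own.

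The 9 genes were all named, and the members and lists were chosen with earlier results of these data known. Spans were those of the selection rule, and strands came from RefSeq windows or, for NEAT1 and PVT1, from general knowledge. Overlap needed 1 bp. Percentiles give the share of an antibody's full list with a lower value. Tag intervals are exact Poisson intervals at 95%. Replicates do not exist, so there are counts and descriptions and no test. Promoter windows and microRNAs are from RefSeq. Alternatives were the filtered lists, margins of 0 and 5 kb, summits, and other ranking measures. The overlap, distance, percentile and coverage code passed 5 of 5 checks on simulated data, also against bedtools 2.31.1. Scripts ran under Python 3.11.15 with pandas 2.3.3, numpy 2.4.6, matplotlib 3.10.9 and scipy 1.17.1.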

Additional observations from a re-analysis of the deposited data

How the results depend on the processing

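Genes with a peak numbered 8 or 9 of 9 for each antibody, and with peaks of all 3, under the filtered lists, margins of 0 and 5 kb and summits inside the margin, H19 being the gene lost. In the filtered lists the peaks at the genes fell from 13 to 8 for TAF3 and from 134 to 29 for RNAPII. The filter keeps 65.8% of the whole TAF3 list and 40.7% of the whole RNAPII list. The median percentile by fold moved in the filtered lists to 87.3 for TAF3, 35.3 for H3K4me3 and 80.7 for RNAPII. Ranked by tags per peak it was 98.8, 89.9 and 99.7, and by tags per kb 85.3, 59.6 and 97.2. Among peaks overlapping both other lists, a comparison chosen after seeing the data, it was 88.8, 37.9 and 67.9. Genes in the top 10% numbered 5 for TAF3 and 3 within the filtered list. They numbered 8 for RNAPII and 3 within the filtered list or among peaks overlapping both other lists. For H3K4me3 they numbered 1, with 4 ranked by tags and 0 by tags per kb. These counts were added after seeing the data. Of 107 alternative percentiles of single genes, 104 lay outside the 95% binomial interval of the reported value. That interval treats the peaks of a list, or the bases of a span, as independent draws, so it is narrow. It measures no spread between libraries, and these counts are not a test. H19 has no TAF3 percentile in the filtered list. The share of a span covered by RNAPII lay outside that interval in 10 of 18 alternatives, and with filtered peaks it fell to 28.6% at MIR17HG, 12.2% at PVT1 and 6.86% at H19. No paired analysis was possible because each antibody has 1 library, and for that reason no library could be left out.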

Other observations

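The 48 kb between the NEAT1 and MALAT1 margins held 10 TAF3 peaks, 4 H3K4me3 peaks and 16 RNAPII peaks, of which 3, 2 and 5 passed the filter. Of the whole lists 65.8%, 79.5% and 40.7% pass. TAF3, H3K4me3 and RNAPII coincided at chr11:65243708-65245701, where TAF3 was 40.9-fold with 330 tags, H3K4me3 158-fold and RNAPII 108-fold. They also coincided at chr11:65221781-65223302, where TAF3 was 26.3-fold, H3K4me3 82.2-fold and RNAPII 113-fold.

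Nearer to MALAT1, RNAPII peaks at chr11:65253963-65258424 (23.1-fold, 384 tags) and chr11:65258455-65261843 (49.1-fold, 608 tags) lay over a run of 6 TAF3 peaks between 65254998 and 65261771, with 5.79- to 15.3-fold enrichment. The highest in tags had 89 and passed the filter, and the other 5 did not. The single H3K4me3 peak in that stretch had 17 tags, 9.09-fold enrichment and a false discovery rate of 33.3%.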
